A study of Homo sapiens with 20 samples.

Results

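The transcripts described here encode 10 cytokine and interferon receptor chains of T cells: IL7R, IL2RG, IL2RA, IL4R, IL21R, IL6ST, IL10RB, IFNGR1, IFNGR2 and IFNAR1. They were chosen by gene name and are 10 of the 60719 genes in the table of expected counts. The study compared WT Jurkat cells, which come from a human T cell leukemia, with JinB8, a CD47-deficient somatic mutant of Jurkat that is called CD47- here. Each line gave 10 libraries. Of these, 1 was left untreated for 1 h. The others came from 3 treatments, each sampled once after 1, 3 and 6 h: plating on immobilized antibodies to CD3 and CD28 (CD3+CD28), plating on both antibodies with thrombospondin-1 added (CD3+CD28+TSP1), and thrombospondin-1 alone (TSP1). TSP1, a secreted ligand of the cell surface receptor CD47, was used at 1 μg/ml, and the antibody to CD28 was coated at 4 μg/ml. All cells, untreated ones included, were in a serum-free medium that contained insulin, transferrin, sodium selenite and hydrocortisone. Hydrocortisone is a glucocorticoid, and its receptor is known to act on the IL7R gene. The CD47- cells are a single mutant line, so the loss of CD47 cannot be told apart from any other difference between JinB8 and Jurkat.

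Each condition was sequenced once. A mean ± SD over the 10 libraries of a line therefore includes the differences between treatments and time points, and p-values measure the spread between these libraries, not between repeated cultures. Expression is given as CPM, the count of a gene relative to its library total after scaling by TMM factors, and fold changes as log2 values from the edgeR quasi-likelihood test with Benjamini-Hochberg adjustment over all 16327 genes tested. A gene is called at an adjusted p under 0.05. CD47 itself was lower in CD47- cells by −1.10 on the log2 scale (SE 0.0784, adjusted p = 1.05e-10 by edgeR). Library totals were 20483642 to 31737616 counts in WT and 16107921 to 28525524 in CD47- cells. The lowest total belonged to the CD47- library given CD3+CD28+TSP1 at 3 h, which also had the highest TMM factor (1.2) and the lowest mean correlation with its line (0.97, against 0.976 to 0.984 in the others), and member calls that it changes are given with and without it. The summed level of 12 T cell markers was 1521 to 1977 CPM in WT and 1576 to 2245 CPM in CD47- cells. Of the 12, 8 were called between the lines, 6 higher and 2 lower in CD47- cells, where 40.4% of all genes were called. TRAC, which encodes the constant part of the T cell receptor alpha chain, was 185 CPM in WT cells against 21.8 CPM in the mutant, and CD28 was 45.1 and 230 CPM. The B cell gene MS4A1 never exceeded 4 counts, whereas CD79A stood at 42.2 CPM in WT cells, against 6.75 CPM in the mutant. Summed markers of myeloid, fibroblast, epithelial and erythroid cells never exceeded 8.38 CPM in any library. In bulk RNA, fewer cells that express a gene and less RNA of it per cell cannot be told apart.

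Cytokine receptors without enzyme activity of their own pair up on the cell surface, and the Janus kinases bound to their inner ends then phosphorylate STAT transcription factors. The common gamma chain, encoded by IL2RG, is shared by the receptors for IL-2, IL-4, IL-7, IL-9, IL-15 and IL-21, and each of these needs a private partner such as IL7R, IL2RA, IL4R or IL21R. IL6ST (gp130) is the shared signaling chain for the IL-6 family, IL10RB is shared by the IL-10 family and interferon lambda, and IFNGR1, IFNGR2 and IFNAR1 bind the interferons. In T cells, IL7R carries the survival signal of naive and memory cells, and IL2RA is a classical gene of T cell activation that completes the high-affinity receptor for IL-2.

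The start regions of 3 genes are shown because the results turn on them. Among the members tested, IL7R and IL4R differed most between the lines, in opposite directions, and IL2RA had its highest counts in activated libraries. Each window runs from 250 bases before to 50 bases after a RefSeq start on GRCh38.p14, on the strand of the gene, and capitals mark matches to the letters listed after the sequences. IL7R lies on chromosome 5 from 35852695 to 35879603, IL4R on chromosome 16 from 27313668 to 27364778, and IL2RA on chromosome 10 from 6010689 to 6062370 (GENCODE 44).
IL7R, plus strand, chr5:35856641-35856940: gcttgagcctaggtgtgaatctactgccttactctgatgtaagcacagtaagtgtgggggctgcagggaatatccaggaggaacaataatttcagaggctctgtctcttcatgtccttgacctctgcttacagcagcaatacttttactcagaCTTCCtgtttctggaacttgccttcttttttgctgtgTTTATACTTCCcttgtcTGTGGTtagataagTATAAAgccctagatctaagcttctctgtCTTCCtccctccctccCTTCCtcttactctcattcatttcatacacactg
IL4R, plus strand, chr16:27313724-27314023: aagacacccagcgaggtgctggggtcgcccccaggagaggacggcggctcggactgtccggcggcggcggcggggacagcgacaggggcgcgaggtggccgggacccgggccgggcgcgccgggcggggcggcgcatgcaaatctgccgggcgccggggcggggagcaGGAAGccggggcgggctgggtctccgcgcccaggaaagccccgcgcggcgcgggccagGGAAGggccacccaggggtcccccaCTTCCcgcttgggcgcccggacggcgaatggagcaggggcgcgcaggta
IL2RA, minus strand, chr10:6062318-6062617: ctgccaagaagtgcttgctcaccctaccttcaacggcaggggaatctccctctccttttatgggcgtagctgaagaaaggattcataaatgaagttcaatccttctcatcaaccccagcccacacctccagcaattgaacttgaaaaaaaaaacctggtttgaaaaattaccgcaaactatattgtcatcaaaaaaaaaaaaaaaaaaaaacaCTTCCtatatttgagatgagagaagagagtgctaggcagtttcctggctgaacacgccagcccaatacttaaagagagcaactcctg

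The letters searched on both strands were TGAGTCA for the factor AP-1, TGGAAA for NFAT factors, GGAAG for ETS factors, TGTGGT for RUNX factors, GTAAACA for FOXO factors, TTCNNNGAA for STAT factors and TATAAA for the TATA box. Among 35116 RefSeq start windows of this length they were found in 4.95%, 20.7%, 71.9%, 13.1%, 3.42%, 7.66% and 11.5%, in that order. The IL7R window held TATAAA from 29 to 24 bases before the start, TGTGGT from 43 to 38 bases before it, and GGAAG on the opposite strand at 4 places. The second match to the TATA letters, on the opposite strand, lies directly before 1 of those ETS matches and shares no base with it. The IL4R and IL2RA windows held only the ETS letters, 3 times and 1 time. AP-1 letters were in the windows of 0 of the 10 genes, NFAT letters only in that of IL2RG, and STAT letters only in that of IL10RB. RUNX letters were in those of IL7R and IL21R, FOXO letters in those of IFNAR1 and IL2RG, and TATA letters in those of IL7R and IL2RG. The windows also differ in base composition, since the GC content is 44.3% for IL7R, 79.3% for IL4R and 41.7% for IL2RA, against a median of 58.7% over all windows. A GC content at or below that of IL7R was found in 20% of the windows, and one at or above that of IL4R in 3.3%. The IL7R window is at the start of the isoform IL7R-201 and the IL2RA window at that of IL2RA-203, but the IL4R window is at the start of IL4R-202, and IL4R-201 begins 27315 bases further downstream. The isoform IL21R-201 begins upstream, at −25097 bases from the RefSeq start of the IL21R window. A match to these letters is a description of the sequence only.

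Per transcript length, the gamma chain was the most abundant of the 10 chains and IL2RA the least in both lines. Levels between genes were compared as TPM, the counts of each gene divided by the count-weighted mean GENCODE 44 length of its isoforms and scaled to a common total per library. In WT cells the order was IL2RG at 43.4 ± 5.69 TPM (SD, n = 10), IFNGR1 at 23.0, IFNAR1 at 15, IFNGR2 at 13.9, IL10RB at 13.2, IL6ST at 9.17, IL7R at 8.99, IL4R at 3.22, IL21R at 1.15 and IL2RA at 0.561 TPM. The neighbours IFNAR1 and IFNGR2, IFNGR2 and IL10RB, IL6ST and IL7R, and IL21R and IL2RA differed by less than their combined SD. In CD47- cells IL2RG led again at 57.3 ± 14.8 TPM (SD, n = 10), and was followed by IFNGR1 at 31.2, IFNGR2 at 23.6, IL10RB at 17.1, IFNAR1 at 13.4, IL4R at 11.7, IL6ST at 8.41, IL7R at 1.93, IL21R at 1.40 and IL2RA at 0.171 TPM. In that order only IL2RG over IFNGR1, IFNGR2 over IL10RB, IL6ST over IL7R and IL21R over IL2RA exceeded the combined SD. IL4R thus stood 1 place below IL7R in WT cells and 2 places above it in CD47- cells. The mean length used for IL6ST rests on the 39.5% of its counts that fell on isoforms with a length in GENCODE 44.

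**Figure D1:**
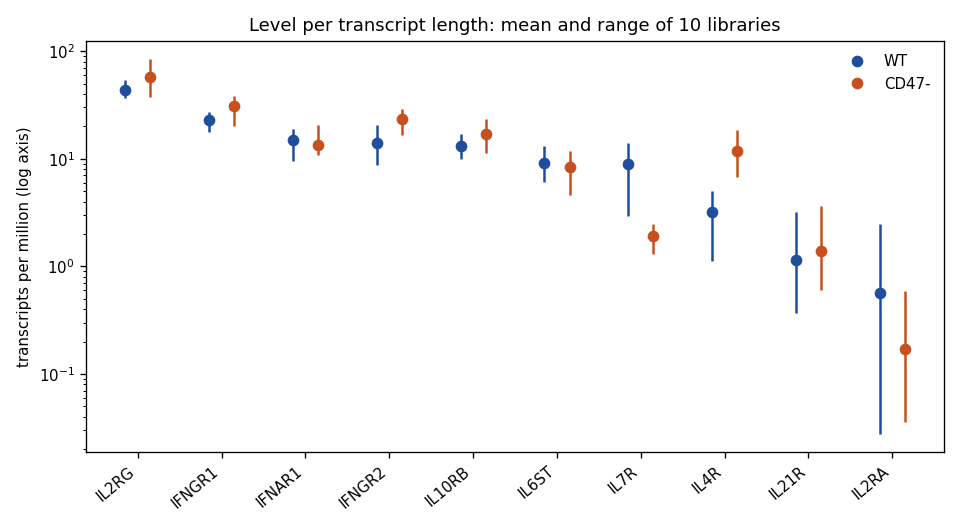
Level of each of the 10 receptor chains per transcript length (TPM, log axis) in each line, with points for the mean of 10 libraries and bars from the lowest to the highest library. IL2RG stands highest and IL2RA lowest in both lines, and IL7R (8.99 in WT, 1.93 in CD47- cells) and IL4R (3.22 and 11.7) change places.

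IL7R was lower and IL4R higher in CD47- cells at every treatment and time point, and these were the members with the largest differences among those tested. Of the 9 members that passed the low-count filter, 4 differed between the lines: IL4R and IFNGR2 were higher and IL7R and IFNAR1 lower in CD47- cells. This share has to be read against a background of 40.4% of all genes called, 19.8% higher and 20.6% lower, so 4 of 9 members is close to the share over all genes. The median log2 fold change was 0.11 over the 9 members and −0.00659 over all genes tested. IL2RA did not pass the filter and was not tested.

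In WT cells IL7R stood at 21.6 CPM in the untreated library, and at 15.1, 15.8 and 18.9 CPM with CD3+CD28, CD3+CD28+TSP1 and TSP1 at 1 h. The same 3 treatments gave 45.5, 45.9 and 46.9 CPM at 3 h and 58.9, 61.5 and 59.1 CPM at 6 h. In CD47- cells the untreated library had 4.92 CPM, and the treatments had 5.10, 5.11 and 5.54 CPM at 1 h, 8.25, 6.90 and 7.22 CPM at 3 h and 9.76, 9.24 and 9.64 CPM at 6 h. The lines did not overlap, and the highest CD47- library was below the lowest WT library. Over 10 libraries each, IL7R was 38.9 ± 19.1 CPM (SD) in WT and 7.17 ± 1.96 CPM (SD) in CD47- cells. The log2 fold change was −2.44 (SE 0.273, adjusted p = 1.71e-07 by edgeR), with CD47- lower in 10 of 10 pairs matched for treatment and time.

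IL4R, the private chain of the IL-4 receptor, which is also part of the IL-13 receptor, went the other way. WT cells had 9.03 CPM untreated, then 11, 9.77 and 9.96 CPM with CD3+CD28, CD3+CD28+TSP1 and TSP1 at 1 h, 14.1, 15.8 and 11.6 CPM at 3 h, and 4.74, 5.52 and 3.32 CPM at 6 h. CD47- cells had 29.1 CPM untreated, then 27.6, 29.0 and 23.5 CPM at 1 h, 39.3, 34.4 and 32.6 CPM at 3 h, and 23.0, 24.3 and 20.5 CPM at 6 h. Every CD47- library was above every WT library. The means were 9.49 ± 4.01 CPM (SD, 10 libraries) in WT cells and 28.3 ± 5.83 CPM in CD47- cells. The log2 fold change was 1.58 (SE 0.219, adjusted p = 3.82e-06 by edgeR).

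**Figure D2:**
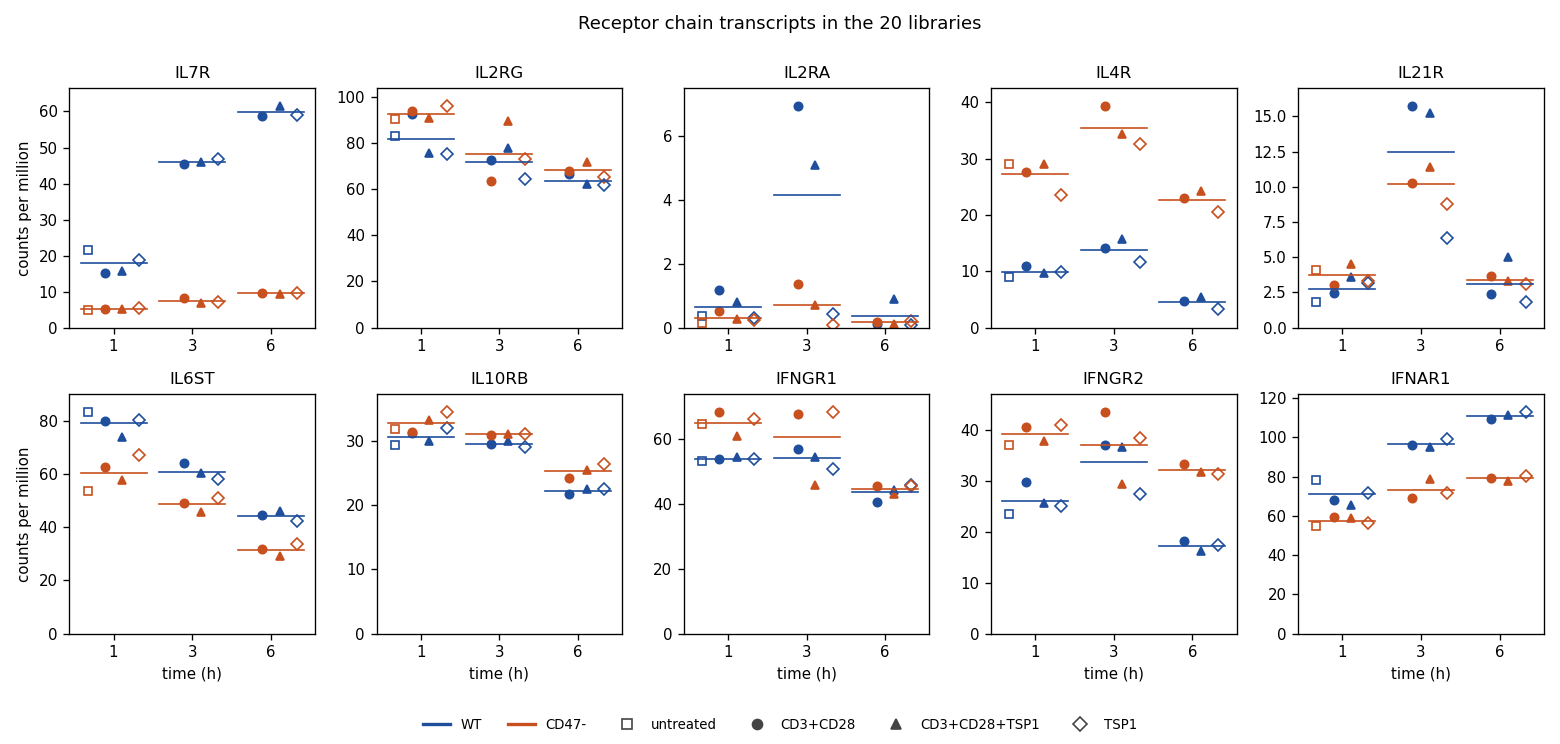
CPM (linear axis from 0) of each receptor chain in all 20 libraries by time point in h, with WT and CD47- cells in separate colors, a symbol for each treatment and horizontal lines for the mean of a line at a time point. The lines are separate for IL7R (15.1 to 61.5 against 4.92 to 9.76 CPM) and for IL4R (3.32 to 15.8 against 20.5 to 39.3 CPM) and overlap for the other chains.

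The remaining gamma chain receptors, IL2RG, IL21R and IL2RA, were not called between the lines or not tested. IL2RG ranged from 61.7 to 92.3 CPM, with a median of 74.0, in WT and from 63.4 to 95.8 CPM, with a median of 81.3, in CD47- cells. Its log2 fold change of 0.13 was not called (adjusted p = 0.294 by edgeR). Part of the IL2RG locus on chromosome X is also annotated as AL590764.2 on the same strand (28 to 146 counts), so reads could be split between the genes. IL21R, whose cytokine supports the function of B cells and cytotoxic T cells, ranged from 1.81 to 15.7 CPM (median 3.36) in WT and from 3.02 to 11.4 CPM (median 3.88) in CD47- cells. The log2 fold change of IL21R was −0.05 with an SE of 0.416 (adjusted p = 0.933 by edgeR), which leaves an interval of 2 SE from −0.89 to 0.78. IL2RA had 372 counts in all WT libraries together and 90 in all CD47- libraries. Without the low-count filter its log2 fold change was −2.06 (adjusted p = 0.0235 by edgeR), and 5 of 10 members were then called, against 18.8% of all genes. The mean log2 difference within matched pairs was −0.76 (SD 0.83), with CD47- lower in 8 of 10 pairs. Differences within pairs were taken from log2 of CPM plus 0.5, which shrinks them at levels as low as those of IL2RA. The −0.76 is therefore not comparable in size with the fitted −2.06. The 2 activated libraries at 3 h held 272 of the counts in WT and 46 in CD47- cells. IL2RA also passed the filter in 11 of the 20 fits that left out 1 library, and was called in these (−2.22 to −1.95). Each of the 11 left out a library where IL2RA was low and kept both activated WT libraries at 3 h. They therefore cannot show how far the difference rests on those 2 libraries.

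Among the chains outside the gamma family, IFNAR1 and IFNGR2 were called. IFNAR1, a chain of the type I interferon receptor, ranged from 65.5 to 112.8 CPM, with a median of 95.5, in WT and from 54.6 to 80.2 CPM, with a median of 70.3, in CD47- cells. Its log2 fold change was −0.40 (SE 0.114, adjusted p = 0.00654 by edgeR), and it was lower in 10 of 10 matched pairs although the ranges of the lines overlapped. IFNGR2, the signaling chain of the interferon gamma receptor, ranged from 16.3 to 36.9 CPM (median 25.3) in WT and from 29.4 to 43.4 CPM (median 37.4) in CD47- cells. Its log2 fold change was 0.50 (SE 0.138, adjusted p = 0.00529 by edgeR), with CD47- higher in 9 of 10 pairs. The exception was the CD3+CD28+TSP1 pair at 3 h, with 36.6 CPM in WT cells against 29.4 CPM in the mutant. IFNGR2 overlaps TMEM50B on the opposite strand (534 to 1658 counts), and the strand setting of the counting is not given in the sources used here.

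IFNGR1, which binds interferon gamma, ranged from 40.6 to 56.9 CPM (median 53.5) in WT and from 43.1 to 68.2 CPM (median 62.7) in CD47- cells, with a log2 fold change of 0.18 (adjusted p = 0.166 by edgeR). IL10RB ranged from 21.8 to 32 CPM (median 29.5) in WT and from 24.2 to 34.5 CPM (median 31.1) in CD47- cells, with a log2 fold change of 0.11 (adjusted p = 0.345 by edgeR), although CD47- was higher in 10 of 10 pairs. A readthrough gene that joins IFNAR2 and IL10RB was counted separately, with 3 to 168 counts. IL6ST ranged from 42.2 to 83.3 CPM (median 62.4) in WT and from 29.2 to 67.1 CPM (median 50) in CD47- cells, and was lower in 10 of 10 pairs. Its log2 fold change of −0.39 was not called (adjusted p = 0.0577 by edgeR).

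A further 3 members were called once the libraries were compared within pairs of the same treatment and time. With a block for the matched pairs, 7 of the 9 members were called, against 4 without it, and 8957 genes of all were called (54.9%), against 6596 (40.4%). A term for time in place of the block also gave 7 of 9 members, where 58.8% of all genes were called. The members added were IL6ST (log2 fold change −0.40, adjusted p = 1.57e-05 by edgeR with the block), IFNGR1 (0.16, adjusted p = 0.0413) and IL10RB (0.11, adjusted p = 0.0433). IFNGR1 was higher in CD47- cells in 7 of 10 pairs, whereas IL6ST and IL10RB went 1 way in all of them. IL6ST was also called without the block when 1 of 5 libraries was left out, namely the CD47- libraries given CD3+CD28 or TSP1 at 1 h or any WT library at 6 h (adjusted p = 0.0293 to 0.0389 by edgeR). In the 6 activated pairs alone, where IL2RA also passed the filter, 2 of 10 members were called, IL7R (−2.43) and IL4R (1.56), against 24.8% of all genes. The log2 fold change of IL2RA was −2.21 there and not called (adjusted p = 0.0536 by edgeR). In the 4 pairs without activation IL7R (−2.41), IL4R (1.66) and IFNGR2 (0.68) of 9 members were called, against 16.4% of all genes.

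**Figure D3:**
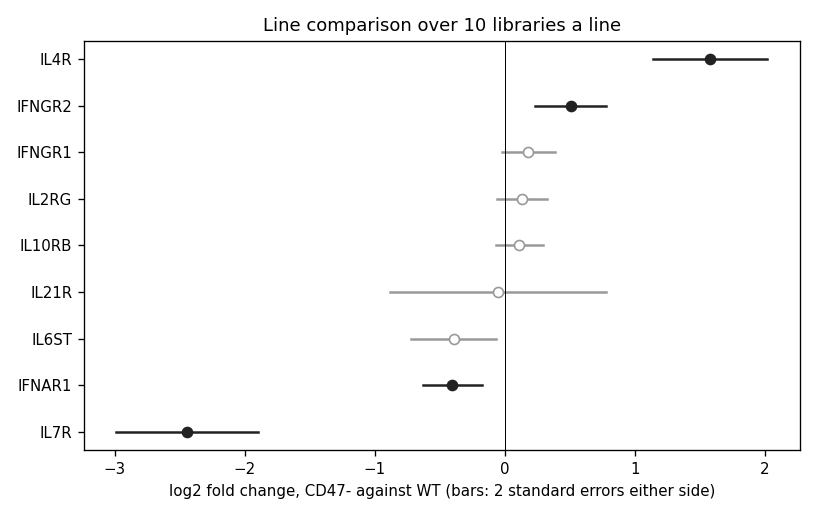
Log2 fold change of CD47- against WT for the 9 receptor chains tested, with bars of 2 SE either side from the edgeR model and filled points for genes called. IL7R (−2.44) and IL4R (1.58) lie far on opposite sides of 0, and IFNGR2 (0.50) and IFNAR1 (−0.40) are the other members called.

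Over time, IL7R and IFNAR1 rose in both lines, IL21R rose at 3 h and was back near its 1 h level at 6 h, and IL6ST fell. In WT cells at 3 h against 1 h, 6 of 9 members were called, 5 higher and 1 lower, where 34.3% of all genes were called, 16.9% higher and 17.4% lower. Leaving out 1 library gave 4 to 7 members for this count. With genes of low count kept, IL2RA was added (2.18, adjusted p = 7.69e-08 by edgeR). That made 7 of 10 members, where 5446 of 41107 genes were called. In CD47- cells at 3 h, 6 of 9 were called, 4 higher and 2 lower, where 38.0% of all genes were called, 18.0% higher and 20.1% lower. At 6 h, 8 of 9 were called in WT cells, 2 higher and 6 lower, where 50.5% of all genes were called, 25.7% higher and 24.8% lower. In CD47- cells at 6 h, 7 of 9 were called, 2 higher and 5 lower, where 53.0% of all genes were called, 26.0% higher and 27.0% lower.

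IL7R rose in WT cells from 17.8 ± 3.00 CPM (SD, 4 libraries) at 1 h to 46.1 ± 0.707 CPM at 3 h and 59.8 ± 1.43 CPM at 6 h (3 libraries each). The log2 change was 1.48 at 3 h (SE 0.0865, adjusted p = 8.89e-08 by edgeR) and 1.85 at 6 h (SE 0.0867, adjusted p = 2.80e-09 by edgeR). In CD47- cells it rose from 5.17 ± 0.268 CPM to 7.46 ± 0.704 CPM and 9.55 ± 0.274 CPM, with log2 changes of 0.51 (SE 0.101, adjusted p = 0.00154 by edgeR) and 0.86 (SE 0.0983, adjusted p = 5.54e-06 by edgeR). The values at 1, 3 and 6 h did not overlap within either line. The rise was smaller in CD47- cells, with a difference between the lines of −0.97 at 3 h (adjusted p = 0.00158 by edgeR) and −0.99 at 6 h (adjusted p = 2.28e-04). The lines were therefore closest at 1 h, where the mean log2 difference within pairs was −1.68, and were at −2.55 at 3 h and −2.59 at 6 h.

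IL4R rose at 3 h in both lines, by 0.42 in WT (adjusted p = 0.0119 by edgeR) and by 0.41 in CD47- cells (adjusted p = 0.00815 by edgeR). At 6 h it fell by 1.19 on the log2 scale in WT cells (SE 0.125, adjusted p = 2.94e-06 by edgeR), whereas in CD47- cells its change of −0.24 was not called (adjusted p = 0.0756 by edgeR). That change was called with limma voom (−0.27, adjusted p = 0.0236), in a model that pools both TSP1 states of activation (−0.30, adjusted p = 0.0191 by edgeR) and when the 1 h CD3+CD28+TSP1 library of WT cells was left out (−0.22, adjusted p = 0.0475 by edgeR), which makes 8 of 9 members in CD47- cells at 6 h, against 7. The change to 6 h differed between the lines by 0.95 (SE 0.164, adjusted p = 0.00165 by edgeR). The members whose time course differed by line were IL7R and IL4R, IL7R at both times and IL4R at 6 h, where 4.28% of all genes were called at 3 h and 16.6% at 6 h. Without the CD47- library given CD3+CD28+TSP1 at 3 h, the difference of IFNAR1 at 6 h was also called (−0.26, adjusted p = 0.0105 by edgeR, against 0.0517 with it), as was the change of IL4R to 6 h in CD47- cells (−0.24, adjusted p = 0.0462). Over all genes, edgeR then called 1066 differences between the lines at 3 h, against 698 with that library, and 4273 at 6 h, against 2714. The count at 3 h against 1 h in WT cells was 7099 without it and 5600 with it, and 6 members were called either way.

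IL21R rose by 1.94 at 3 h in WT cells (SE 0.265, adjusted p = 8.63e-05 by edgeR) and by 1.49 in CD47- cells (SE 0.256, adjusted p = 5.68e-04 by edgeR). At 6 h its changes were −0.08 and −0.10 (adjusted p = 0.837 and 0.769 by edgeR). IL21R and IL4R are neighbours on chromosome 16, 37395 bases apart, and both rose at 3 h. IFNAR1 rose by 0.50 and 0.70 at 3 and 6 h in WT and by 0.32 and 0.44 in CD47- cells, and all of these were called. IL6ST fell by 0.36 at 3 h and by 0.82 at 6 h in WT cells, and by 0.36 and 0.98 in CD47- cells, and all of these were called as well.

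The other class II chains and the gamma chain were lower at 6 h in both lines. IL10RB fell by 0.48 in WT and by 0.38 in CD47- cells, IFNGR1 by 0.31 and 0.54, IFNGR2 by 0.63 and 0.31, and IL2RG by 0.35 and 0.46, each of them called. IFNAR1 lies between IL10RB and IFNGR2 on chromosome 21, 12966 bases from the one and 43548 bases from the other, and rose at 6 h where they fell. At 3 h IFNGR2 was called in WT cells (0.32, adjusted p = 0.0331 by edgeR) and IL2RG in CD47- cells (−0.32, adjusted p = 0.0160 by edgeR), and IFNGR1 and IL10RB in neither line.

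Some of these calls rest on single libraries. Leaving out any 1 of 5 WT libraries, those of the 3 treatments at 1 h and those with CD3+CD28 or CD3+CD28+TSP1 at 3 h, ended the call of IFNGR2 in WT at 3 h (0.21 to 0.35, adjusted p = 0.0643 to 0.202 by edgeR). IL4R in WT at 3 h was lost without the CD3+CD28+TSP1 library at 1 h (0.26, adjusted p = 0.105) or at 3 h (0.37, adjusted p = 0.0646), and IFNGR1 in WT at 6 h without the CD3+CD28 library at 6 h (−0.26, adjusted p = 0.0631). In CD47- cells, IL2RG at 3 h was lost without the CD3+CD28 or TSP1 library at 1 h or the CD3+CD28 library at 3 h (−0.28 to −0.21, adjusted p = 0.0750 to 0.123), and with limma voom (adjusted p = 0.0632). IL4R at 3 h was lost there without the CD3+CD28 library at 3 h (0.35, adjusted p = 0.0506), and IFNGR2 at 6 h without any 1 of 4 libraries (−0.30 to −0.25, adjusted p = 0.0809 to 0.131), namely CD3+CD28+TSP1 or TSP1 at 1 h and CD3+CD28 or TSP1 at 6 h.

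**Figure D4:**
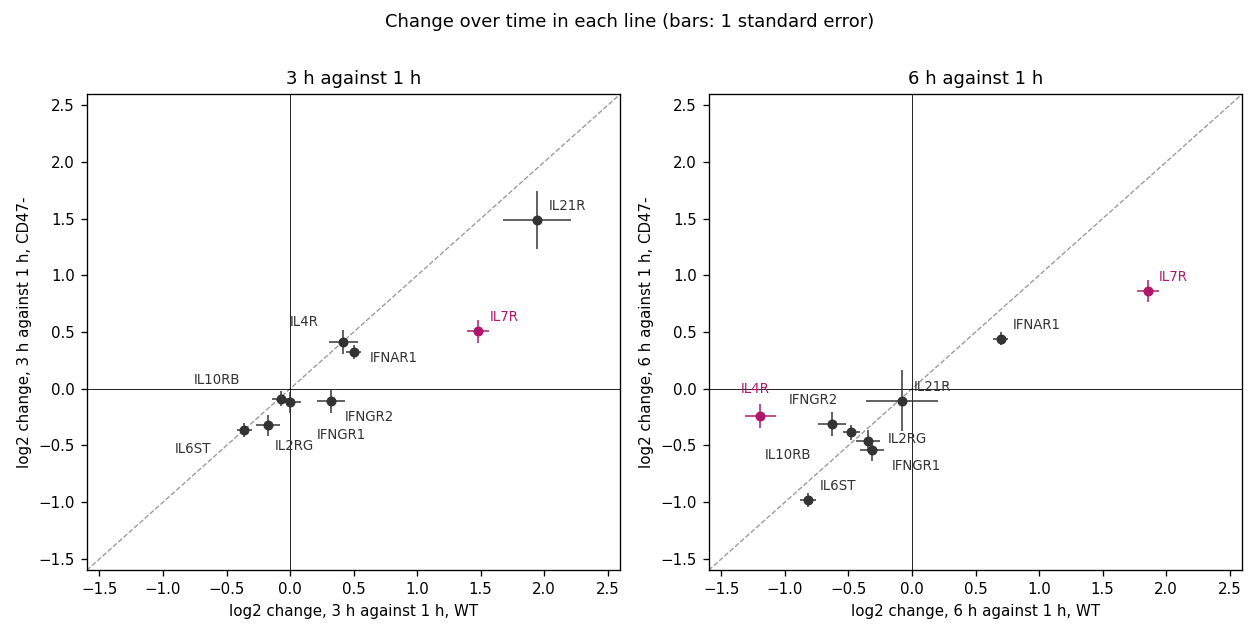
Log2 change at 3 h (left) and 6 h (right) against 1 h in WT (horizontal axis) and CD47- cells (vertical axis) for the 9 receptor chains tested, with bars of 1 SE and a dashed line of equal change. Genes in color differ between the lines: IL7R lies below the line at both times (1.48 against 0.51, and 1.85 against 0.86), and IL4R lies above it at 6 h (−1.19 against −0.24).

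IL2RA and IL21R had their highest values in activated libraries at 3 h. No treatment comparison was called by edgeR for any of the 9 members that passed the low-count filter, whereas IL2RA and IL21R were called in 1 of them when genes of low count were kept. IL2RA had 7 counts in untreated WT cells and 25, 18 and 7 counts with CD3+CD28, CD3+CD28+TSP1 and TSP1 at 1 h. At 3 h these treatments gave 153, 119 and 10 counts, and at 6 h 3, 28 and 2 counts. The 2 activated libraries at 3 h held 73.1% of all IL2RA counts of the WT line. In CD47- cells IL2RA had 4 counts untreated, then 13, 7 and 6 counts at 1 h, 32, 14 and 2 counts at 3 h and 4, 3 and 5 counts at 6 h. The highest CD47- library, again CD3+CD28 at 3 h, had 1.36 CPM, against 6.93 CPM in the WT library of the same condition. A total of 3 counts, the limit of detection used here, is 0.0979 to 0.156 CPM depending on the library, and 4 of the 20 libraries were at or below it.

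IL21R in WT cells was 15.7 and 15.2 CPM in the CD3+CD28 and CD3+CD28+TSP1 libraries at 3 h, against 6.36 CPM with TSP1 alone. In CD47- cells these values were 10.3, 11.4 and 8.80 CPM. At 6 h the WT values were 2.37, 5.03 and 1.84 CPM and the CD47- values 3.65, 3.34 and 3.08 CPM. The gap between activated and TSP1 libraries at 3 h was thus wider in WT cells in these single libraries.

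Between CD3+CD28+TSP1 and TSP1 alone, matched at 3 time points, IL21R differed by 0.98 in WT cells (SE 0.267, adjusted p = 0.446 by edgeR) and by 0.32 in CD47- cells (adjusted p = 0.523 by edgeR), and IL4R by 0.36 (adjusted p = 0.673) and 0.21 (adjusted p = 0.336). In this comparison 0 of 9 members were called in WT cells, where 15 genes of all were called, which is 0.0919% of those tested, and 816 had an unadjusted p under 0.05. DESeq2 called 54 genes and limma voom 28, and no member was among them. Leaving out the CD47- library with the lowest total gave 22 genes by edgeR and again 0 members. With genes of low count kept, edgeR called 201 genes, among them IL2RA (2.98, adjusted p = 5.21e-09) and IL21R (0.98, adjusted p = 7.40e-05) in WT cells. The difference of IL2RA between the lines in this response was −2.15 and not called (adjusted p = 0.222 by edgeR without the filter). IL7R differed by −0.07 in WT and −0.08 in CD47- cells (adjusted p = 1.00 and 0.687 by edgeR).

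In the other 9 treatment comparisons edgeR called 0% of genes and 0 members, with between 366 and 2636 genes at an unadjusted p under 0.05. They were CD3+CD28+TSP1 against TSP1 in CD47- cells, CD3+CD28 against untreated, CD3+CD28+TSP1 against CD3+CD28 and TSP1 against untreated in each line, and the differences between the lines in CD3+CD28+TSP1 against TSP1 and against CD3+CD28. DESeq2 called between 0 and 7 genes in them and limma voom called 0. When genes of low count were kept, the calls by edgeR numbered 84 to 540 in these 9 comparisons, and without the CD47- library given CD3+CD28+TSP1 at 3 h it called 226 genes for CD3+CD28 and 79 for TSP1 against untreated WT cells. In each of these cases 0 members were called. Adding TSP1 to activated cells moved IL7R by 0.05 in WT cells, with an interval of 2 SE from −0.12 to 0.21, and by −0.11 in CD47- cells, with an interval from −0.31 to 0.08. The largest differences in that comparison among the members tested were 0.44 for IL21R in WT and −0.26 for IFNGR1 in CD47- cells. IFNGR1 was 45.7 CPM in the CD47- library given CD3+CD28+TSP1 at 3 h, against 67.5 and 68.2 CPM in the CD3+CD28 and TSP1 libraries at 3 h, and that library is the one with the lowest total and the highest TMM factor. Without it the difference of IFNGR1 was −0.11, and the largest in CD47- cells was 0.20 for IL21R. Relative to the single untreated library, IL7R differed by −0.44 with CD3+CD28 in WT cells (unadjusted p = 0.00537, adjusted p = 0.565 by edgeR) and by 0.14 in CD47- cells (adjusted p = 0.994 by edgeR).

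**Figure D5:**
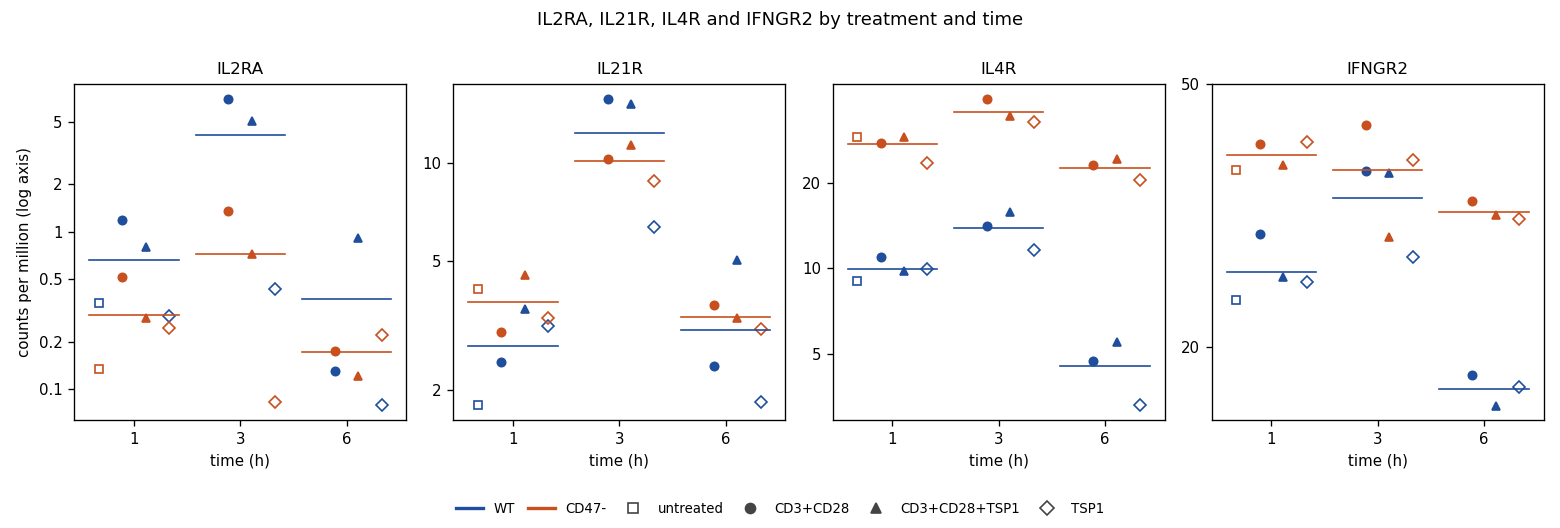
CPM (log axis) of IL2RA, IL21R, IL4R and IFNGR2 by time point, with 1 symbol per library for each treatment and horizontal lines for the mean of a line at a time point. The WT libraries with CD3+CD28 (6.93 CPM) and CD3+CD28+TSP1 (5.08 CPM) at 3 h stand above all others for IL2RA.

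At the level of isoforms, the difference of IL7R was found in its main transcript, and the calls for IL4R depended on the filter. Of 30 isoforms of the members that passed the filter, 5 were called, against 15.1% of the 55450 isoforms tested overall. IL7R-201, a protein-coding transcript with 8 exons, carried 96.2 ± 2.27% of the IL7R counts in WT and 95.8 ± 2.14% in CD47- cells (SD, 10 libraries each). Its log2 fold change was −2.44 (adjusted p = 5.45e-06 by edgeR). IL4R counts were spread over IL4R-201, IL4R-203 and IL4R-202, with mean shares of 33.8%, 34.6% and 21.7% in WT and 43.4%, 25.2% and 24.3% in CD47- cells. The share of IL4R-201 ranged from 0 to 65.2% over the WT libraries, so the split between these isoforms varied widely from library to library. IL4R-201 (1.83, adjusted p = 0.0335) and IL4R-202 (1.66, adjusted p = 0.0489) were called by edgeR and IL4R-203 was not (1.37, adjusted p = 0.0927). IFNGR2-201 (0.49, adjusted p = 0.0417) and IFNAR1-201 (−0.44, adjusted p = 0.0475) were the other isoforms called. With isoforms of low count kept, IL7R-201 was still called (adjusted p = 4.21e-06 by edgeR). The other 4 calls were lost, although their log2 fold changes stayed about as large. These were IL4R-201 (1.83, adjusted p = 0.0608), IL4R-202 (1.66, adjusted p = 0.0796), IFNGR2-201 (0.48, adjusted p = 0.0913) and IFNAR1-201 (−0.44, adjusted p = 0.0717). The others called were then IL7R-202 (adjusted p = 0.00124), with 43.5 estimated counts in WT and 0 in CD47- cells, and IL4R-210 (1.75, adjusted p = 0.0401), a retained-intron transcript with 1.29% of the IL4R counts in WT and 1.42% in CD47- cells, and 4.81% of all isoforms were called. With the block for matched pairs 7 of 30 isoforms of the members were called, against 19.9% of all isoforms.

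The genes whose pattern over the 20 libraries was most like that of IL7R, by Pearson correlation of log2 CPM, were IFT80 (0.987), TMEM248 (0.984) and NINJ2 (0.976). The points share line and time point. NINJ2, for example, was 2.52, 5.21 and 7.27 CPM in WT cells at 1, 3 and 6 h and 0.241, 0.336 and 1.11 CPM in CD47- cells. After subtraction of the line means, which leaves time and treatment, SH3BP5 (0.981), NCOA5 (0.977) and the transcription factor gene ETS2 (0.976) were closest. ETS2 rose from 75.8 ± 6.32 CPM at 1 h to 181 ± 4.22 CPM at 6 h in WT cells with 165 CPM at 3 h, and from 110 to 172 CPM in CD47- cells, with 125 CPM at 3 h. Since these genes were chosen for a pattern like that of IL7R, their values are a description.

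The other genes of these pathways were taken from lists, and their counts between the lines are to be read against the 40.4% of all genes called. Of 30 other receptor chains, 14 passed the filter and 9 differed between the lines, 5 higher and 4 lower in CD47- cells. The median log2 fold change of the 14 was 0.05. IL10RA, the private chain of the IL-10 receptor, was lower (−2.44), and IL2RB, which joins IL2RG in the IL-2 and IL-15 receptors, and LIFR were higher (2.44 and 1.87). IL6R had 0 to 2 counts per WT library, 7 in all, and 13 to 27 per CD47- library, 205 in all. Of 21 ligands, 7 passed the filter and 3 were called. IL4, the ligand of IL4R, had 0 to 6 counts per WT library, 9 in all, and 14 to 48 per CD47- library, 289 in all, whereas IL15 was lower in CD47- cells (−1.23) and OSM higher (0.67). No WT library reached the minimum count of 10 of the filter for IL6R or IL4. These 2 genes were therefore tested only because they are high in CD47- cells, and their place in the counts above is no independent support.

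Of 11 kinases and STAT factors, all of which passed, 6 were called between the lines, 4 higher and 2 lower in CD47- cells. STAT5A, a main target of IL-7 and IL-2 signals, was higher by 2.44 (SE 0.130, adjusted p = 7.39e-13 by edgeR), with means of 19.7 CPM in WT cells against 107.3 CPM in the mutant. STAT5B (1.29), STAT2 (0.69) and STAT6 (0.42), the factor used by IL-4, were also higher. The median log2 fold change of the 11 was −0.07. Of 12 inhibitors, 6 were called, 3 in each direction, with SOCS2 (1.34), SOCS3 (0.92) and PTPN6 (0.69) higher and SOCS4 (−0.40) among the lower ones. Of 7 factors known to act on the IL7R gene, 4 were called. ETS1 was higher (1.47) and FOXO3 slightly higher (0.28), and NR3C1, the glucocorticoid receptor gene, and GABPA were lower (−0.66 and −0.34). The part of any of these genes in the levels of IL7R or IL4R was not tested.

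At 6 h against 1 h, more of the transducers and inhibitors were called lower than higher in each line, where 25.7% of all genes were called higher and 24.8% lower in WT cells, and 26.0% and 27.0% in CD47- cells. In WT cells 8 of 11 transducers were called, 2 higher and 6 lower, and 7 of 12 inhibitors, all 7 lower. In CD47- cells 10 of 11 transducers were called, 2 higher and 8 lower, and 7 of 12 inhibitors, 1 higher and 6 lower. The other receptor chains divided evenly, with 4 higher and 4 lower of 14 tested in each line.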

How the data were processed

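RNA was sequenced from 10 WT and 10 CD47- Jurkat libraries. After trimming (cutadapt 1.18) and alignment to GRCh38 (STAR 2.4.2a), the authors deposited RSEM 1.3.3 expected counts per gene and isoform on GENCODE 36, without normalization. Each table holds 2 columns of no sample in this series, which were not used. ComBat correction, whose batch is not named in the sources used here, was not repeated.

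Expected counts were rounded and tested with edgeR 4.0.16 (quasi-likelihood, TMM, filterByExpr by line with minimum count 10 and minimum total 15) in R 4.3.3, with Benjamini-Hochberg adjustment and a threshold of 0.05. The line comparison had no further term. Time and treatment shared 1 model, in which every treatment of a line had its own coefficient and each line its own terms for 3 and 6 h. DESeq2 1.42.0, limma 3.58.1 voom with quantile normalization, other factors and filters, a replicate block, a time term, activated or unactivated pairs alone and each library left out were alternatives. The libraries numbered alike share treatment and time in the labels, and their deviations from the line means correlated at 0.126 to 0.602 (within a time point, −0.332 to 0.185).

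Members and lists were chosen with earlier results of these data known. The genes named are the members (in time and treatment comparisons those called, and IL7R always, with others where their values are described), CD47, the 3 genes most like IL7R by either measure (log2 CPM, pseudocount 0.5, mean over 1), and the called list genes with the largest changes between the lines. IL2RA and IL21R treatment values and marker genes were named after they were seen. The tests were also run on simulated counts. The simulated line comparison held no differences between treatments or time points, so it does not show how that comparison performs on these libraries. Positions come from GENCODE 44 and promoters from RefSeq, where all 10 members matched. Intervals are 2 SE, and limits of 3 counts cover counting error only.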

Additional observations from a re-analysis of the deposited data

Results flagged for a closer look

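The change over time differed between the lines for 2 of the members by the interaction test in edgeR. For IL7R the log2 change from 1 h was smaller in CD47- than in WT cells at 3 h, with a difference of −0.971 (adjusted p = 0.00158), and at 6 h, with a difference of −0.9911 (adjusted p = 2.28e-04). For IL4R the change to 6 h was a fall in WT cells that was larger than in CD47- cells, with a difference of 0.9539 (adjusted p = 0.00165). The test for a single library far from its group covered 40 groups and found none among the members. Each group was the 10 libraries of a line or its 4 libraries at 1 h. The libraries at 3 h and at 6 h were not tested as groups of their own. A library that stood apart only from others of its time point there could therefore be missed.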

How the results depend on the processing

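The count of members called between the lines, 4 of 9, became 7 with a replicate block for the pairs matched by treatment and time and 7 with a time term, where 54.9% and 58.8% of all genes were called against 40.4%, and 2 of 10 in the activated pairs alone, where 24.8% were. Leaving out 1 library gave 4 to 6, where the members added were IL6ST and IL2RA. IL2RA passed the filter in 11 of these 20 fits, all of which kept both activated WT libraries at 3 h. Its added calls therefore do not test how far they rest on those 2 libraries. Without a low-count filter, 2 of 10 members were called in WT cells between CD3+CD28+TSP1 and TSP1, where 201 of 41107 genes were called. With the filter the count was 0 of 9, where 15 of 16327 genes were called. At 3 h against 1 h in WT cells 7 of 10 members were called without the filter, where 5446 of 41107 genes were. With the filter 6 of 9 were called, where 34.3% of all genes were, and IL2RA made the difference. Between the lines 3 of 89 isoforms of the members were called without the filter, where 4.81% of all isoforms were. With the filter 5 of 30 were called, where 15.1% of all isoforms were, and only IL7R-201 was in both. With the replicate block 7 of 30 isoforms were called, where 19.9% of all isoforms were. IL21R, not called between the lines in any of these, changed sign from −0.05 to 0.0762 with limma voom, 0.17 with the replicate block, 0.10 with the time term and 0.57 in the pairs without activation, and lay between −0.21 and 0.25 when 1 library was left out. The model that pools both TSP1 states of activation sets all libraries with CD3+CD28 against the untreated and TSP1 libraries together. This is a different contrast from CD3+CD28+TSP1 against TSP1. For IL7R it gave 0.000803 in CD47- cells and 0.16 for the difference between the lines, both opposite in sign to CD3+CD28+TSP1 against TSP1. None of the treatment differences of IL7R was called. With 1 library left out they ranged from −0.1364 to 0.01258 for CD3+CD28+TSP1 against TSP1 in WT cells, from −0.003242 to 0.08156 for CD3+CD28+TSP1 against CD3+CD28 in WT cells, and from −0.08455 to 0.05594 for the difference between the lines in the first of these. The cause of these shifts was not tested. Single values under the alternatives were tallied for the line comparison of the members tested and for the treatment differences of IL7R. Over time the tally held only changes, and differences between the lines, that edgeR called with all libraries and the filter. In it 1215 values kept their direction and side of the threshold, 20 fell below it, 11 rose above it and 24 changed sign. Calls gained outside the tally, such as those of IL4R and IFNAR1 at 6 h and of IL21R between treatments, are given above.

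IL2RA did not pass the filter at this depth, and the part of depth in the varying split of the IL4R isoforms was not tested. Since each condition was sequenced once, treatment comparisons rest on 3 time points at most, and those with untreated cells on 1 library per line.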
